A study of Mus musculus with 6 samples.

Results

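The genes described here make, break down and bind retinoic acid, the active form of vitamin A. The 9 members were chosen by symbol, from the roles of their products: Stra6, Rdh10, Rdh11, Aldh1a1, Aldh1a2, Aldh1a3, Crabp1, Cyp26a1 and Cyp26b1. All 9 of 9 were found among the 55353 genes in the files, and GENCODE M21 assigns them 39 of the 142647 isoforms. The samples were whole testes taken on postnatal day 14 from 3 control mice and from 3 mice with a conditional deletion of Rnu11, labelled Rnu11 cKO and called mutants here. Rnu11 is the gene of the U11 RNA, a part of the minor spliceosome that recognises the 5′ end of a scarce kind of intron. The sources used here do not give the Cre line, the cells in which Rnu11 was deleted or the alleles of the controls.

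Retinol enters cells with the help of the membrane receptor STRA6 and is oxidised to retinaldehyde by retinol dehydrogenases such as RDH10. Retinaldehyde dehydrogenases of the ALDH1A family turn that product into retinoic acid, CRABP1 binds it in the cytoplasm, and CYP26 enzymes clear it. In the testis, retinoic acid starts the differentiation of spermatogonia and, through Stra8, the entry into meiosis. Aldh1a1 is known from Sertoli cells, Aldh1a2 from spermatocytes and Cyp26b1 from peritubular myoid cells.

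Values are TPM, a share of all transcripts that is scaled for transcript length. TPM holds no read counts, so depth is unknown here. The deleted gene, Rnu11, read 614, 576 and 550.3 TPM in the controls and 196, 393 and 203 TPM in the mutants. Markers of Sertoli, Leydig and germ cells were detected, except the Leydig cell marker Akr1c18, which was listed at 0 in every library; 1 of the 30 leptotene and zygotene genes written was not matched in the files. Because these are bulk samples, fewer cells of a type and less RNA per cell cannot be told apart.

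Some sequences frame the values. Of the 9 members, 7 have a promoter window in the RefSeq table (build GRCm38.p6), 12 windows in all, each from 250 bases before to 50 bases after an annotated start. They were searched on both strands for direct repeats of the half-site AGGTCA or its close variants AGTTCA (second G replaced), GGGTCA (leading A replaced) and GGTTCA (both replaced), in any pairing, with a spacer of 5 or 2 bases, the arrangements that retinoic acid receptors are known to bind. The repeat with a spacer of 5 was found in Cyp26a1 alone among these 12 windows, and in 0.0974% of all 32851 windows of this length. The repeat with a spacer of 2 was in 0 of the 12 and in 0.268% of all. The Cyp26a1 match lies at positions −32 to −16 from the RefSeq start, at chr19:37697776-37697792, and reads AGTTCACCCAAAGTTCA on the minus strand. It is shown in capitals, as the plus strand reads it, in a stretch of 120 bases (chr19:37697678-37697797, plus strand) that ends just before the GENCODE start at 37697798, which lies upstream of the RefSeq start.
Cyp26a1 upstream: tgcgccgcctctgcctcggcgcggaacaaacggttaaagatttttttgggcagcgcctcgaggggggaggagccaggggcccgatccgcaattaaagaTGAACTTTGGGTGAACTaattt

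Nearly all of the Rdh11 TPM was in 2 isoforms, Rdh11-203 and Rdh11-201, which begin at different exons. The coding bases of exon 1 are printed from GENCODE M21 (GRCm38, minus strand), with the start codon in capitals. They lie at chr12:79191726-79191790 for Rdh11-203 and at chr12:79190769-79190785 for Rdh11-201. They are shown because the shares of these isoforms did not overlap between the groups, as in 11.7% of all shares tested. Neither passed the test over all shares.
Rdh11-203 exon 1: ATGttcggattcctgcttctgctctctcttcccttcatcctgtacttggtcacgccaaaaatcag
Rdh11-201 exon 1: ATGggccttgtactcag

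Among the members, Aldh1a1 and Cyp26b1 had the highest levels and Cyp26a1 the lowest. Aldh1a1 averaged 151 TPM over the 6 libraries (105 to 213) and Cyp26b1 95.5 TPM (65.3 to 120.2). Their ranges overlapped, and both stood apart from the next gene, Aldh1a2, at 19.2 TPM (16.6 to 23.4). Aldh1a2 overlapped with Crabp1 (16.8 TPM), Stra6 (9.48 TPM) with Rdh11 (8.41 TPM), and Rdh10 (4.52 TPM) with Aldh1a3 (4.07 TPM). Cyp26a1, at 1.64 TPM (1.43 to 2.04), lay below the range of every other member. Among the members, Aldh1a1 made up 82.9% to 88.3% of the summed TPM of Aldh1a1, Aldh1a2 and Aldh1a3, and Cyp26b1 made up 97.8% to 98.8% of that of Cyp26a1 and Cyp26b1. Aldh1a7 and Cyp26c1, which are no members, are not in these sums.

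**Figure D1:**
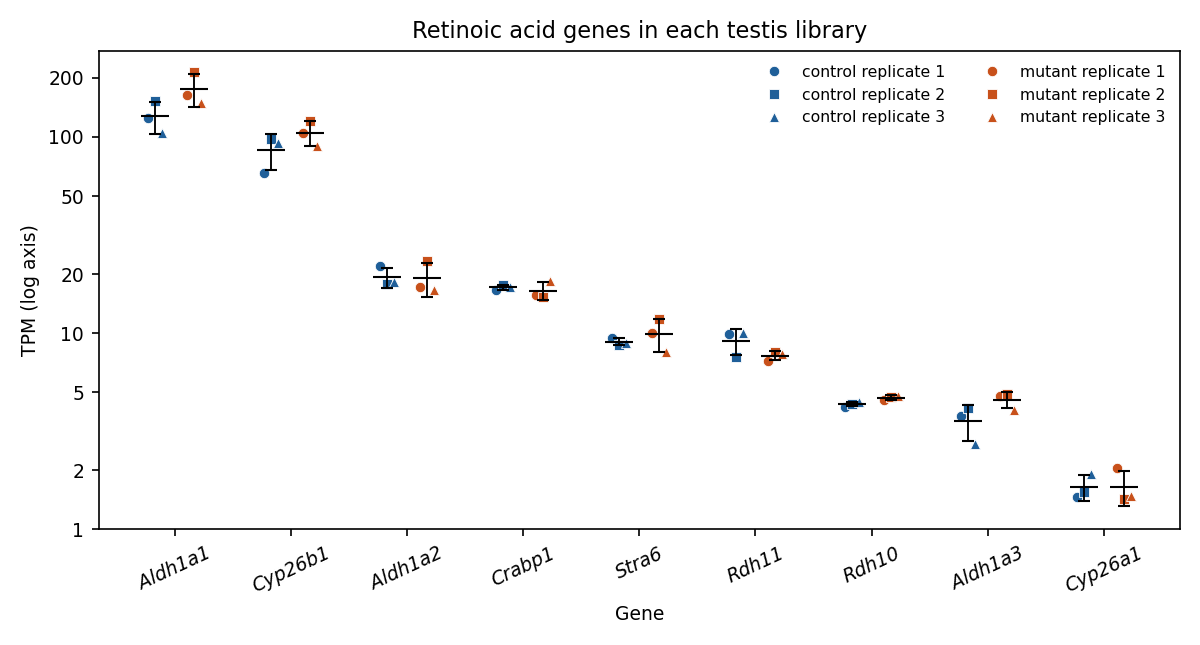
TPM (log axis) of the 9 members in each library, with genes on the horizontal axis ordered by mean level, points for single libraries and black bars for the mean and SD of 3 libraries per group. Control and mutant points of most genes lie side by side, and Rdh10 is the member whose groups do not overlap.

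No member passed the test of mutant against control testes across all genes. By limma on log2(TPM + 1), with Benjamini-Hochberg adjustment over the 17959 genes averaging 1 TPM or more, 0 of the 9 members passed an adjusted p of 0.05, beside 0.0278% of all genes tested. All 9 passed the filter on low values. Rnu11, the deleted gene, did not pass an adjusted p of 0.05 either (limma, log2 difference −1.21, SE 0.26, adjusted p = 0.29). A gene not called here can therefore still differ. At an unadjusted p under 0.05 there was 1 member, Aldh1a1, which was higher in mutants, against 16.1% of all genes in either direction and 12.1% higher. In 1 member, Rdh10, every mutant lay above every control, against 20.3% of all genes free of overlap and 14.5% in this direction. These shares, 1 of 9 each, are near the background. Of the 9 log2 differences 6 were above 0 and 3 below, with a median of 0.09, and the median of all genes tested was also 0.09. The scale itself bears on these small values: rescaling TPM to nuclear protein-coding genes moved the median of all genes from 0.09 to −0.03, and median-ratio scaling moved it to 0.00. As deposited, 25.4% to 31.0% of each library's TPM was in those coding genes and 26.9% to 30.5% in Rn7s2, a 7SL RNA gene. Relative to the median of all genes, the members ran from −0.31 (Rdh11) to 0.37 (Aldh1a1), with Aldh1a3 and Cyp26b1 both at 0.21.

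**Figure D2:**
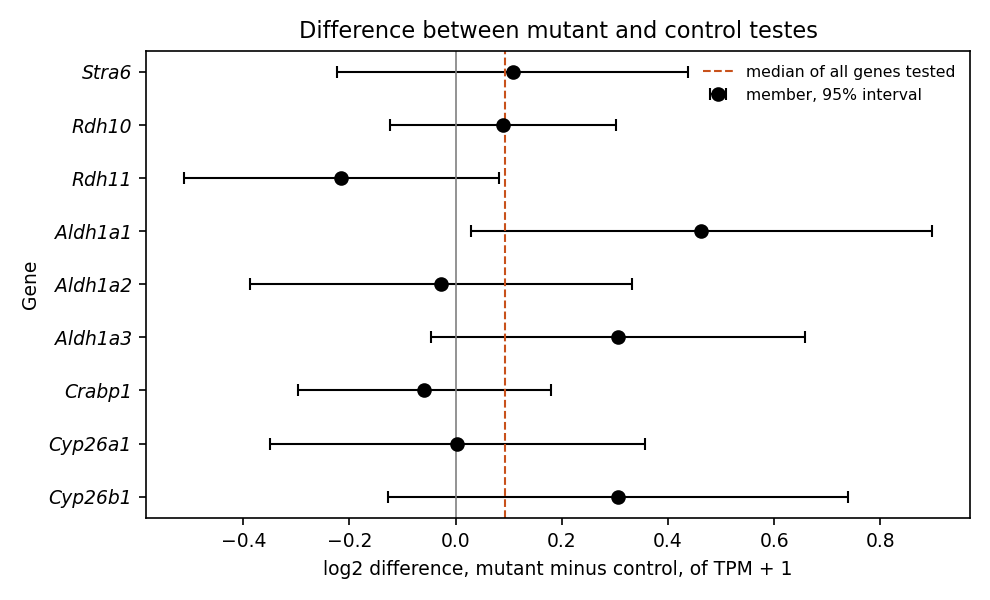
Log2 difference of TPM + 1, mutant minus control, for the 9 members in order of their roles from uptake to breakdown. Points are limma estimates from 3 against 3 libraries, bars are 95% intervals, the grey line is 0 and the dashed line is the median of all genes tested (0.09); the interval of Aldh1a1 alone lies above 0, before adjustment over genes.

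Stra6, the membrane receptor through which retinol carried by RBP4 enters cells, is ENSMUSG00000032327.14 (GRCm38 chromosome 9, 58063788 to 58153996, plus strand). Its level was 9.46, 8.75 and 8.92 TPM in the controls and 9.97, 11.8 and 7.98 TPM in the mutants. Both the highest and the lowest library were mutants, so the groups overlapped. On the log2 scale the difference was 0.11 (SE 0.14, 95% interval −0.22 to 0.44; limma, adjusted p = 0.70), and it was −0.02 after protein-coding scaling and −0.02 without mutant replicate 2. Without mutant replicate 3 it was 0.24. The locus overlaps Ccdc33 on the other strand and Gm16131, which is annotated as antisense and lies on the same strand as Stra6. The sources used here do not say whether the authors counted by strand.

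Rdh10, the retinol dehydrogenase that makes most retinaldehyde in embryos, is ENSMUSG00000025921.7 (chromosome 1, 16105774 to 16133734, plus strand). It read 4.22, 4.37 and 4.45 TPM in the controls and 4.54, 4.75 and 4.80 TPM in the mutants. Every mutant was above every control, but the gap was small: the mean was 1.08 times that of the controls. This was a log2 difference of 0.09 (SE 0.09, interval −0.12 to 0.30; limma, adjusted p = 0.60), equal to the median of all genes. After protein-coding scaling it was −0.03 and after median-ratio scaling 0.00, and under either scaling the groups overlapped.

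Rdh11, a retinal reductase that can also oxidise retinol, is ENSMUSG00000066441.14 (chromosome 12, 79174337 to 79192293, minus strand). The gene stood at 9.89, 7.52 and 10.004 TPM in the controls and at 7.21, 7.997 and 7.84 TPM in the mutants. Control replicate 2 lay among the mutants, so the groups overlapped. The log2 difference was −0.22 (SE 0.13, interval −0.51 to 0.08; limma, adjusted p = 0.40). Without control replicate 2 it was −0.34 (limma, adjusted p = 0.17). The groups then no longer overlapped, as in 42.1% of all genes with that library left out. With protein-coding scaling the log2 difference was −0.37.

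The isoform shares of Rdh11 were further apart than the levels of the gene, without passing the test. Rdh11-203, whose coding start is shown above, made up 73.7%, 72.0% and 72.9% of the gene's TPM in the controls and 59.3%, 60.4% and 59.6% in the mutants. The groups did not overlap, which held for 11.7% of all shares tested. The spread was 0.87 (SD, n = 3) in controls and 0.58 (SD, n = 3) in mutants. Rdh11-201 mirrored Rdh11-203, at 26.8% ± 1.28 in controls and 40.2% ± 0.58 in mutants (SD, n = 3). The log2 ratio of Rdh11-203 to the other isoforms differed by −0.84 (SE 0.14, interval −1.18 to −0.49). With an unadjusted limma p of 9.5e-04 it did not pass over the 35636 isoform shares tested (limma, adjusted p = 0.56), of which 4 (0.0112%) were called. It ran from −0.87 to −0.69 over the alternatives, and without any 1 library it stayed between −0.87 and −0.80.

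In TPM, Rdh11-203 read 7.29, 5.41 and 7.30 in the controls and 4.27, 4.83 and 4.68 in the mutants, all 3 mutants below every control (limma, adjusted p = 0.43). Rdh11-201 read 2.52, 2.10 and 2.71 TPM in the controls and 2.94, 3.17 and 3.16 TPM in the mutants, all 3 above every control (limma, adjusted p = 0.47). The isoforms share 5 exons with identical bounds. Their annotated starts are 1332 nt apart, and the last exon of Rdh11-203 is longer by 1214 nt, all of it untranslated. TPM estimates of isoforms with so much shared sequence rest on the reads of these few differing parts.

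**Figure D3:**
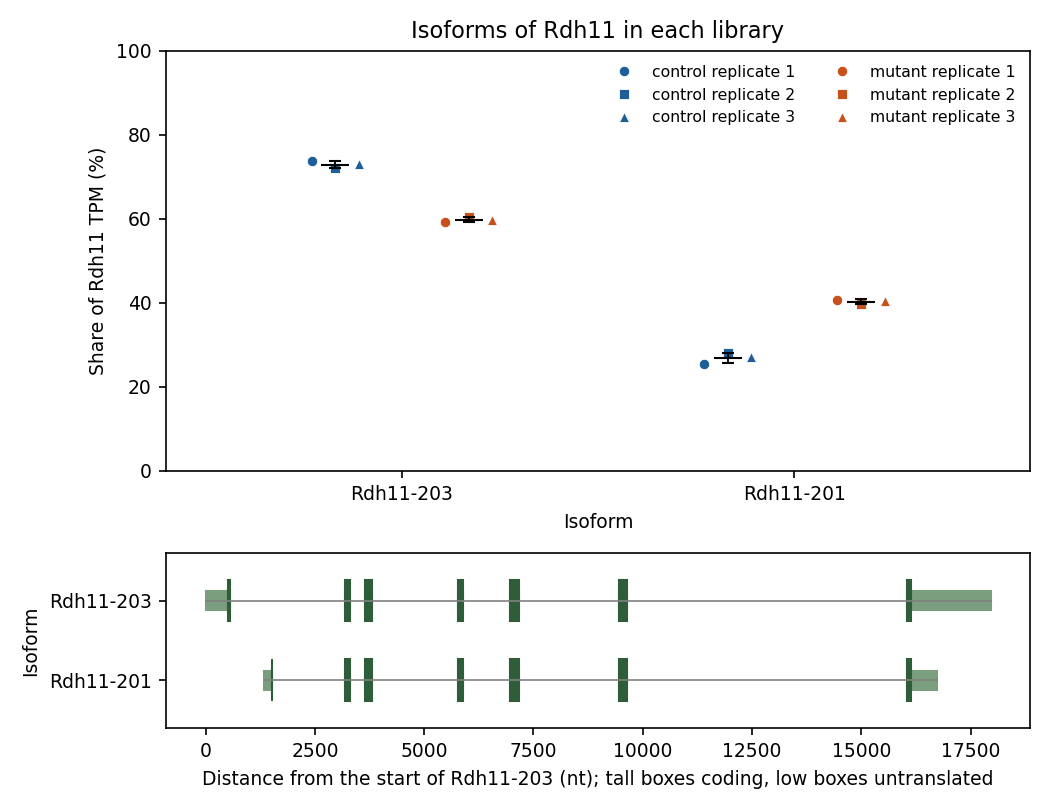
Top, share of Rdh11 TPM (%) held by Rdh11-203 and Rdh11-201 in each library, with black bars for the mean and SD of 3 libraries per group; the mutant libraries sit at 59.3% to 60.4% for Rdh11-203, below all controls (72.0% to 73.7%). Bottom, exons of both isoforms to scale by distance in nt from the start of Rdh11-203, with tall boxes for coding and low boxes for untranslated parts, which differ at both ends.

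Aldh1a1, the retinaldehyde dehydrogenase known from Sertoli cells, is ENSMUSG00000053279.8 (chromosome 19, 20492715 to 20643465, plus strand). It had the largest difference in TPM among the members: 125, 153 and 105 TPM in the controls and 164, 213 and 149.8 TPM in the mutants. Mutant replicate 2 was the highest library and control replicate 3 the lowest, and mutant replicate 3 lay just under control replicate 2. The mean was 1.38 times that of the controls, a log2 difference of 0.46 (SE 0.18, interval 0.03 to 0.90; limma, unadjusted p = 0.040, adjusted p = 0.30). It was 0.36 with median-ratio scaling and 0.33 with protein-coding scaling. Under both the groups did not overlap, as in 22.3% and 22.5% of all genes.

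All isoforms of Aldh1a1 had a higher mean in mutants. They were at 1.28 to 1.62 times the control mean over the 6 isoforms, and the main coding isoform Aldh1a1-201 held 80.8% ± 3.44 of the gene's TPM in controls and 79.5% ± 0.42 in mutants (SD, n = 3). Aldh1a7, a closely related neighbour whose reads can be confused with those of Aldh1a1, read 7.17, 9.01 and 5.69 TPM in the controls and 11.6, 14.7 and 9.65 TPM in the mutants. All its mutants were above all controls (log2 difference 0.65, SE 0.19; limma, adjusted p = 0.29).

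Most of the 28 Sertoli cell markers were higher in mutants, like Aldh1a1. Their median log2 difference was 0.47, against 0.09 for all genes. Of the 28 markers 26 were higher and 2 lower, and limma called 0 of them. Of all 17959 genes tested 11925 were higher. At an unadjusted limma p under 0.05, 20 of the 28 were higher, against 12.1% of all genes. In 14 every mutant was above every control, against 14.5% of all genes. The summed level of the 28 markers was 2582 to 3155 TPM in controls and 3554 to 4745 TPM in mutants. All 12 tested Leydig cell markers were higher too, with sums of 176 to 305 TPM in controls and 306 to 469.7 TPM in mutants. Limma called 0 of the 12. At an unadjusted limma p under 0.05, 6 of them were higher, and in 4 every mutant was above every control. Mutant replicate 2 had the highest and control replicate 2 the highest control sum in both lists, as for Aldh1a1. This was not particular to the 2 lists. The macrophage and endothelial lists had the same order, with 9 of 9 and 8 of 9 markers higher, while the peritubular myoid list did not. The part of these cells in the Aldh1a1 difference was not tested.

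Aldh1a2, the dehydrogenase known from spermatocytes, is ENSMUSG00000013584.5 (chromosome 9, 71215789 to 71296243, plus strand). It read 21.9, 17.8 and 18.2 TPM in the controls and 17.3, 23.4 and 16.6 TPM in the mutants. The mutants held both the highest and the lowest value, with mutant replicate 2 apart from the other mutants. The fitted log2 difference was −0.03 (SE 0.15, interval −0.39 to 0.33; limma, adjusted p = 0.94), and its sign turned when control replicate 1, mutant replicate 1 or mutant replicate 3 was left out (0.06, 0.03 and 0.06). It was −0.18 without mutant replicate 2 and −0.17 with protein-coding scaling. Beside it, 13 of 13 tested pachytene markers, of 20 written, were lower in mutants, at a median of −0.61 on the log2 scale. Summed levels were 151 to 261 TPM in controls and 145 to 169.6 TPM in mutants, with overlap. Limma called 0 of the 13. At an unadjusted p under 0.05, 4 were lower, and in 2 every mutant was below every control, against 3.98% and 5.77% of all genes. Of all 17959 genes tested 6034 were lower. The part of these cells in the Aldh1a2 values was not tested.

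Aldh1a3, another retinaldehyde dehydrogenase, is ENSMUSG00000015134.15 (chromosome 7, 66390890 to 66427517, minus strand). It read 3.78, 4.15 and 2.72 TPM in the controls and 4.81, 4.87 and 4.08 TPM in the mutants, with mutant replicate 3 just below control replicate 2. Its log2 difference was 0.31 (SE 0.15, interval −0.05 to 0.66; limma, adjusted p = 0.34), and 0.17 without control replicate 3, the lowest library. Its main coding isoform, Aldh1a3-201, read 2.48, 2.73 and 1.81 TPM in the controls and 3.46, 4.06 and 2.99 TPM in the mutants, without overlap (limma, adjusted p = 0.43).

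Crabp1, the cytoplasmic binding protein, is ENSMUSG00000032291.8 (chromosome 9, 54764748 to 54773110, plus strand) and has 1 annotated isoform. It read 16.6, 17.6 and 17.1 TPM in the controls and 15.6, 15.3 and 18.5 TPM in the mutants. The controls were tight, and the mutants lay on both sides of them. The log2 difference was −0.06 (SE 0.10, interval −0.30 to 0.18; limma, adjusted p = 0.77). It was −0.14 when mutant replicate 3 was left out and −0.01 when mutant replicate 2 was, and with protein-coding scaling it was −0.20.

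Cyp26b1, which oxidises retinoic acid and is known to shield germ cells of the fetal testis from it, is ENSMUSG00000063415.12 (chromosome 6, 84571414 to 84593908, minus strand). It read 65.3, 98.2 and 93.6 TPM in the controls and 105, 120.2 and 90.2 TPM in the mutants. Control replicate 1 was low against the rest, and mutant replicate 3 lay below the other 2 controls. Its log2 difference was 0.31 (SE 0.18, interval −0.13 to 0.74; limma, adjusted p = 0.41). Without control replicate 1 it was 0.12, with median-ratio scaling 0.20 and with protein-coding scaling 0.17. Cyp26b1-204 and Cyp26b1-205, which start at different exons, held 56.4% ± 1.70 and 43.5% ± 1.66 of its TPM in controls and 58.6% ± 0.84 and 41.2% ± 0.88 in mutants (SD, n = 3), with overlap. Of 8 peritubular myoid markers 6 were higher and 2 lower, with summed levels of 222 to 292 TPM in controls and 262 to 315 TPM in mutants, and their part in these values was not tested.

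Cyp26a1, a CYP26 enzyme whose gene is known to respond to retinoic acid, is ENSMUSG00000024987.6 (chromosome 19, 37697798 to 37701536, plus strand). It is the member with the repeat printed above. It read 1.45, 1.54 and 1.91 TPM in the controls and 2.04, 1.43 and 1.47 TPM in the mutants. Values of both groups were mixed. The log2 difference was 0.00 (SE 0.15, interval −0.35 to 0.36; limma, adjusted p = 0.99), and its sign depended on the scaling and on single libraries, with −0.06 by median-ratio scaling and −0.12 by protein-coding scaling. At this level log2(TPM + 1) understates any change.

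Of the 39 isoforms of the members, 18 passed a mean of 1 TPM, 8 were listed at 0 in all libraries, and 0 of the 18 were called by limma over 44197 isoforms, of which 0.0136% were called. At an unadjusted p under 0.05, 4 were higher and 1 lower, against 8.06% and 3.18% of all isoforms (11.2% in either direction). Groups did not overlap in 8 of the 18, 7 higher and 1 lower, against 11.6% and 5.17% of all isoforms (16.8% in either direction). Several of these belong to the same gene and share its level. Among 11 shares tested 0 were called. At an unadjusted p under 0.05, 1 was higher and 1 lower, against 2.77% and 3.01% of all shares (5.78% in either direction). Both were Rdh11 isoforms, whose shares mirror each other and so are not separate observations. Groups did not overlap in 2 shares that were higher and 1 that was lower, against 5.78% and 5.9% of all shares (11.7% in either direction). These are the 2 Rdh11 isoforms, and Stra6-206, a short isoform of 3 exons at 12.9% ± 1.56 in controls and 18.0% ± 3.26 in mutants (SD, n = 3; limma, adjusted p = 0.86).

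Among isoforms annotated as keeping an intron, the mean share was higher in mutants for Cyp26a1-202 and lower for Stra6-210, Rdh10-202 and Aldh1a3-202. Of 108 introns of the members, 4 lay whole inside an exon of another isoform, in Cyp26a1 and Stra6, so that their bases could be read. None of the 4 started with GTATCCTT or ATATCCTT, the 5′ splice sites typical of minor introns, and all 4 ran from GT to AG. Cyp26a1-202, which keeps the intron at 37698099 to 37698290, held 21.7% ± 11.9 of the gene's TPM in controls and 23.6% ± 3.89 in mutants (SD, n = 3). Stra6-210 held 6.94% ± 1.23 and 5.34% ± 0.36, and Rdh10-202, annotated as keeping an intron, 27.5% ± 1.25 and 21.4% ± 6.61 (SD, n = 3). Aldh1a3-202, annotated in the same way, held 9.36% ± 9.06 and 6.57% ± 1.79 (SD, n = 3). Cyp26a1-202 and Aldh1a3-202 averaged only 0.39 and 0.33 TPM over the libraries. Stra6-206, given above, also keeps one of the 4 introns, and its share was higher in every mutant than in any control. Among the annotated isoforms only Stra6-212 and Stra6-213 splice that intron. Stra6-212 was at 0 TPM in every library and Stra6-213 averaged 0.23 TPM, so the share of Stra6-206 does not measure how often the intron is kept. In Cyp26a1-202, Stra6-210, Rdh10-202 and Aldh1a3-202 the groups overlapped. Cyp26a1-202, Stra6-210 and Aldh1a3-202 were picked for their annotation after values were seen. The other 104 introns were not read here.

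The receptors that retinoic acid acts through were not called either. Of 6 receptor genes 4 were tested, 2 higher and 2 lower, with a median log2 difference of 0.03, and 0 were called by limma. At an unadjusted p under 0.05 there was 1, Rara, against 16.1% of all genes in either direction and 12.1% higher. Rara, the receptor known from Sertoli cells and spermatogonia, read 16.4, 17.7 and 16.1 TPM in the controls and 23.5, 23.3 and 18.4 TPM in the mutants, all mutants above all controls (log2 difference 0.35, SE 0.12; limma, adjusted p = 0.29). With protein-coding scaling the Rara value was 0.23. Rarg, known from spermatogonia, read 8.03, 8.87 and 9.27 TPM in the controls and 8.40, 6.91 and 7.83 TPM in the mutants, with overlap. The log2 difference of Rarg was −0.16, −0.31 with protein-coding scaling and −0.09 without mutant replicate 2. The partners Rxra and Rxrb had control means of 8.58 ± 0.54 and 17.3 ± 2.42 TPM and mutant means of 9.13 ± 0.25 and 16.9 ± 1.13 TPM (SD, n = 3). Under both other scalings Rxra turned from 0.08 to below 0 on the log2 scale. Rarb and Rxrg stayed under 1 TPM in every library.

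Among 32 other enzymes, carriers and transporters of retinoids, 15 were tested, 12 of them higher and 3 lower, with a median log2 difference of 0.23, and 0 were called by limma. Of all 17959 genes tested 11925 were higher. At an unadjusted p under 0.05 there were 2, both higher, against 12.1% of all genes in this direction: Aldh1a7, given above, and Dhrs7, a short-chain dehydrogenase. Dhrs7 read 17.5, 22.6 and 13.7 TPM in the controls and 26.3, 31.3 and 23.8 TPM in the mutants (log2 difference 0.59, SE 0.19; limma, adjusted p = 0.29). Rdh13, a mitochondrial member of the retinol dehydrogenase family, averaged 8.65 ± 1.17 and 10.8 ± 1.03 TPM, and the fatty acid binding protein gene Fabp5, whose product can also bind retinoic acid, 8.37 ± 1.57 and 12.2 ± 3.42 TPM in controls and mutants (SD, n = 3). In both the lowest mutant lay just below control replicate 2, and without mutant replicate 2 the log2 difference of Fabp5 went from 0.48 to 0.27. That of Rdh13 was 0.29, and 0.17 with protein-coding scaling. Groups did not overlap in 4 of the 15, all higher, against 14.5% of all genes in this direction.

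Germ cell genes that respond to retinoic acid were mostly lower in mutants, while none was called. Of 8 tested, 7 were lower and 1 higher, and their median was −0.23 on the log2 scale, against 0.09 for all genes. In 5 every mutant was below every control, against 5.77% of all genes for this direction, and 4 were lower at an unadjusted p under 0.05, against 3.98%. The other lower genes, Sall4 and Sohlh1, named after their values were seen, were near 0. Their log2 differences were −0.09 and −0.07, with overlap (limma, adjusted p = 0.71 and 0.81). Only RNA was measured, not protein. Sohlh2, a transcription factor of differentiating spermatogonia, read 12.2, 10.4 and 11.98 TPM in the controls and 8.35, 8.70 and 9.09 TPM in the mutants (log2 difference −0.36, SE 0.10; limma, adjusted p = 0.29). Rhox13, an X-linked homeobox gene, read 8.41, 7.54 and 8.63 TPM in the controls and 6.54, 5.36 and 6.37 TPM in the mutants (log2 difference −0.38, SE 0.11; limma, adjusted p = 0.29).

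Kit, the receptor tyrosine kinase of differentiating spermatogonia, read 19.4, 21.59 and 21.62 TPM in the controls and 16.9, 18.8 and 16.5 TPM in the mutants, without overlap (limma, adjusted p = 0.30). Gm4969, which encodes the partner of STRA8 at meiotic entry, averaged 40.0 ± 3.46 and 32.6 ± 3.12 TPM (SD, n = 3), also without overlap. With protein-coding scaling Kit was at −0.40 and Gm4969 at −0.43 on the log2 scale, against −0.25 and −0.29 as deposited. Stra8 itself, named after its values were seen, read 29.7, 28.4 and 29.5 TPM in the controls and 23.7, 23.7 and 27.8 TPM in the mutants (log2 difference −0.21, SE 0.09; limma, adjusted p = 0.32). The exception in direction was Rec8, a meiotic cohesin, also named after its values were seen, at 9.16, 7.81 and 8.66 TPM in the controls and 14.5, 8.28 and 12.2 TPM in the mutants, with overlap. Markers of the same germ cells were lower too. Of 29 leptotene and zygotene genes 27 were lower, beside 6034 of all 17959 genes. Their summed levels were 631 to 792 TPM in controls and 462 to 592 TPM in mutants, and limma called 0 of the 29. At an unadjusted limma p under 0.05, 20 of the 29 were lower, against 3.98% of all genes. In 15 every mutant was below every control, against 5.77% of all genes. For differentiating spermatogonia, 6 of 9 genes were lower. Of 11 tested genes of undifferentiated spermatogonia 3 were lower. The part of these cells in the lower values was not tested.

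**Figure D4:**
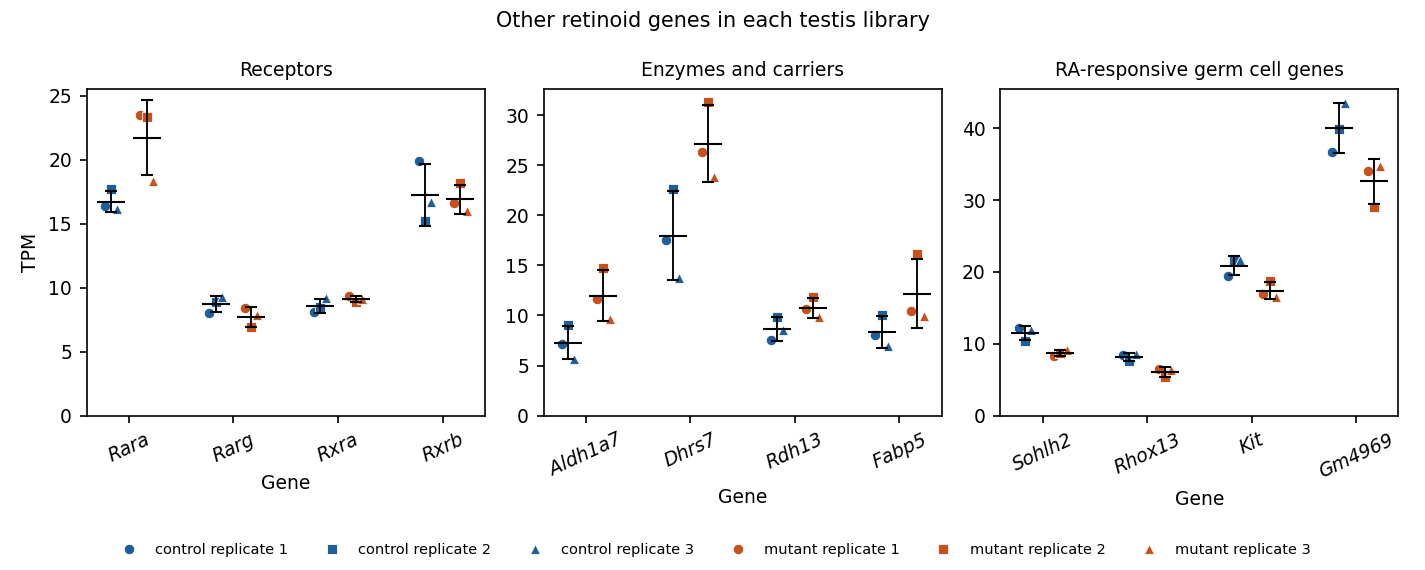
TPM in each library of the 4 genes with the smallest p-values in each list: receptors (left), other enzymes and carriers (middle) and germ cell genes that respond to retinoic acid (right). Points are single libraries, and black bars are the mean and SD of 3 libraries per group; the mutant points of Rara, Aldh1a7 and Dhrs7 lie above all controls, and those of Sohlh2, Rhox13, Kit and Gm4969 lie below.

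The authors' deposited table gives log2 fold changes of the members with the same signs where it lists one. It rests on the same 6 libraries, so the shared signs are no separate evidence. Its version headed confident lists Aldh1a1 at 0.47, Aldh1a3 at 0.36, Cyp26b1 at 0.28, Rdh10 at 0.10 and Stra6 at 0.06. The authors' deposited table lists Rdh11 at −0.32, Aldh1a2 at −0.12, Crabp1 at −0.06 and Cyp26a1 at 0. The version headed single run differs for some members, with Aldh1a2 at −0.018, Rdh11 at −0.25, Stra6 at 0.135 and Cyp26a1 at 0.012. The sources used here do not say how either version was derived.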

How the data were processed

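Total RNA of 3 control and 3 mutant testes was depleted of ribosomal RNA and made into stranded libraries, per the labels' protocols. The submitters' processing notes name HISAT2 and GRCm38. The quantification tool, its annotation and its use of strand: not given in the sources used here. What the authors deposited is TPM per gene and per isoform, which hold no depth, and, per the file headers, a table of group averages in TPM and log2 fold changes, used for description. Group and replicate number came from the labels.

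Features averaging at least 1 TPM were tested on log2(TPM + 1) with limma 3.58.1 in R 4.3.3 (two-sided; eBayes, trend), Benjamini-Hochberg adjusted over all features, threshold 0.05. An isoform's share was tested as the log2 ratio of its TPM to the summed TPM of the other isoforms, 0.1 added to each, without trend, where the gene had 5 TPM or more and the isoform 5% to 95% of it. An exact permutation test of 3 against 3 cannot go below 0.1. On simulated data, the gene fit over 17959 genes recovered 62% of changes of 1 log2 unit and 92% of changes of 2, and the isoform fit over 44197 isoforms 18% and 65%. The simulated noise was independent for each feature. Smaller changes and isoform shares were not simulated, and all member differences were below 1 log2 unit. Members and lists were chosen with earlier results of these data known. Each member is named, with the 4 genes of smallest p-value per retinoid list and up to 3 isoforms per member of at least 0.5 TPM. Alternatives were the pseudocount, the filter, the scaling, the trend, a replicate block and each library left out. GENCODE M21 held 141524 of the 142647 isoforms. Tables were joined in Python 3.11.15 with pandas 2.3.3, and figures drawn with matplotlib 3.10.9.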

Additional observations from a re-analysis of the deposited data

How the results depend on the processing

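No member, no other retinoid gene, no isoform of a member and no isoform share of a member was called under any alternative run, with the smallest limma adjusted p at 0.11 (Dhrs7). Depth is unknown, and the simulated recovery limits what 3 against 3 libraries can show. Of 114 alternative values for the 9 members, 103 kept the sign and 11 turned it, all of them near 0. After protein-coding scaling the log2 difference was −0.029 for Rdh10, −0.022 for Stra6, −0.117 for Cyp26a1 and −0.047 for Rxra, and after median-ratio scaling −0.064 for Cyp26a1 and −0.015 for Rxra. With 1 library left out, Aldh1a2 ran from −0.175 to 0.062, Cyp26a1 from −0.10 to 0.077, Stra6 from −0.016 to 0.242 and Rxrb from −0.105 to 0.080. The shares of Aldh1a1-201 and Aldh1a1-205 ran from −0.299 to 0.0047 and from −0.092 to 0.035. The number of members whose groups do not overlap was 2 with median-ratio scaling and 2 with protein-coding scaling (Aldh1a1 and Aldh1a3; 22.3% and 22.5% of all genes), and 1 to 6 with 1 library left out: 4 without control replicate 2, 2 without mutant replicate 2 and 6 without mutant replicate 3, against 42.1%, 25.6% and 46.3% of all genes. Without control replicate 1, control replicate 3 or mutant replicate 1 the number was 1, against 27.4%, 25.7% and 27.3% of all genes. With all 6 libraries 20.3% of all genes did not overlap. Leaving out any 1 library raised this share, most for control replicate 2 and mutant replicate 3. The causes of these differences and of the shift with scaling were not tested.

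The labels number replicates alike in both groups. They do not say that a number marks a shared litter or batch, so the number was not taken as a pairing. Libraries with the same number had correlations of −0.07, 0.03 and 0.08 across genes in their deviations from the group mean. Those with different numbers had −0.16 to 0.12. With 3 libraries per group these values cannot exclude a shared litter or batch. With a replicate block, the calls over all genes went from 5 to 0, those over all isoforms from 6 to 0 and those over all isoform shares from 4 to 0; 0 members, 0 other retinoid genes, 0 member isoforms and 0 isoform shares were called, and Aldh1a1 had a limma adjusted p of 0.19.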

Other observations

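Aldh1a1 was both the member with the smallest p-value and the one with the highest level. Among 9326 protein-coding genes averaging 5 TPM or more, the 3 whose log2(TPM + 1) followed it most closely over the 6 libraries were Creb3, Tceal9 and Serp2, each with a Pearson r of 0.997 (6 libraries, which share the difference between the groups). Creb3, a transcription factor of the endoplasmic reticulum membrane, read 19.2 to 32.3 TPM in controls and 32.5 to 52.8 TPM in mutants. Tceal9 read 30.7 to 41.2 TPM in controls and 41.3 to 57.4 TPM in mutants. Serp2 read 3.59 to 5.64 TPM in controls and 5.43 to 7.73 TPM in mutants.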
